A study of Oryza sativa with 6 samples.

Results

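The miR166 family was followed in leaves of CA21, a glyphosate-tolerant rice that carries no transgene. Its members were all entries of the deposited miRNA table whose name holds miR166 or MIR166 with no further digit, from any species prefix and either arm of the hairpin. They were 17 of the 479 names in the table and 16 of its 454 distinct sequences. Seedlings of CA21 at the third-leaf stage received a spray of 2 mg per ml glyphosate (GLY), a herbicide against the shikimate pathway of aromatic amino acid synthesis, or no spray (CK), with 3 small RNA libraries per group. All 6 libraries come from this one germplasm, which was bred by mutagenesis with radiation and ethyl methane sulfonate and by crosses to the sensitive rice P1003, and its leaves were taken once sprayed P1003 plants had died. Whether separate plants stand behind the libraries is not stated, and the p-values therefore cover only the spread from library to library. In whole leaves, fewer cells that make a miRNA and less of it per cell cannot be told apart.

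miR166 is one of the oldest miRNA families of land plants. Its mature form comes from the 3p arm of the hairpin and pairs with the mRNAs of class III homeodomain-leucine zipper (HD-ZIP III) transcription factors, which are then cut. In rice these include HOX9, HOX10, HOX32 and HOX33. In leaf primordia miR166 keeps HD-ZIP III activity on the upper (adaxial) side, and the same genes act in the shoot meristem and in vascular tissue. The 5p arm pairs with the mature form in the duplex and is mostly degraded. The mRNAs of the target genes were not analysed here.

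The table gives 1 normalized count per miRNA and library. In the names, L and R with a sign stand for a 5′ or 3′ end that is longer (+) or shorter (-) by that many bases than the reference form, ss for a substitution, and p5 or p3 for an arm sequence without a mature name of its own. The 3p sequences below show how near to each other the members are. Letters are as in the table, with T for U, and capitals mark the seed (bases 2 to 8).
osa-miR166a-3p: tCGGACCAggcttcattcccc
osa-miR166k-3p: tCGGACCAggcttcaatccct
osa-miR166g-3p: tCGGACCAggcttcattcctc
osa-miR166m_R-1: tCGGACCAggcttcattccc
gma-miR166p_R+1 and gma-miR166m_L+1_1ss21CA: tCGGACCAggcttcattccca
osa-miR166e-3p: tCGAACCAggcttcattcccc
osa-miR166g-3p_L+2R-2: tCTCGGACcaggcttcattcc
osa-miR166i-3p_L+2R-2: tCTCGGATcaggcttcattcc
stu-miR166b_L+1R-1: tTCGGACCaggcttcattcct

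The 10 entries of the 3p arm carried 9 sequences, all of which begin with T. The names prefixed gma and stu come from soybean and potato hairpins, and both gma names share one sequence and one set of values, so they were counted once in the arm sums. Counting both names instead, an alternative chosen after seeing the data, changed the log2 difference of the summed 3p arm between GLY and CK to -0.80, against -0.78. The seed CGGACCA was shared by 5 sequences. Against osa-miR166a-3p, counted from 1 at its 5′ end, osa-miR166k-3p differed by T16A and C21T, osa-miR166g-3p by C20T and the gma sequence by C21A, all outside the seed. Within the seed, osa-miR166e-3p carried G4A. A pair of sequences began 2 nt upstream of the mature start, which moves the seed to CTCGGAC in osa-miR166g-3p_L+2R-2 and to CTCGGAT in osa-miR166i-3p_L+2R-2, the second one with C6T. The bases that osa-miR166g-3p_L+2R-2 shares with osa-miR166a-3p held 0 substitutions, and its sequence stops before position 20, at which osa-miR166g-3p differs. osa-miR166m_R-1 is osa-miR166a-3p without its last base, and so without position 21, at which the gma sequence differs. The sequences alone thus do not tell which precursor the reads came from.

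The sequences of the 5p arm were less alike, and 4 of the 7 are shown because they made up most of its signal.
osa-miR166j-5p: gAATGACGtccggtctgaaga
osa-miR166a-5p: gGAATGTTgtctggttcaagg
osa-miR166d-5p: gGAATGTTgtctggctcgagg
osa-MIR166b-p5: tGAGGGGAatgttgtctggctc
Against osa-miR166a-5p, osa-miR166d-5p carried T15C and A18G, and osa-MIR166b-p5 started 5 nt upstream with the same T15C. Of the 17 entries, 14 were 21 nt long.

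Across the whole table the library sums ranged from 155225 to 177269 in GLY and from 136071 to 164725 in CK. The value of 1 read, read from the steps between low values, put the libraries at about 97902 to 176515 miRNA reads in GLY and 154436 to 304753 in CK. These depths are estimates, the table holds no counts, and no interval for counting error can be given. In the paper's read summary, a smaller share of the raw reads was kept as valid in every GLY library than in any CK library. The adaptor and length filter took a larger share in every GLY library. The part of this difference in the values of miR166 was not tested. GLY 2 stood apart, with a correlation of log2 values over the tested miRNAs of 0.640 with GLY 1 and 0.557 with GLY 3, against 0.928 between GLY 1 and GLY 3 and 0.939 to 0.972 among the CK libraries. CK 3 was the deepest library by this estimate and GLY 3 the shallowest. As a check of the tissue, the 6 entries of miR2118 and miR2275, which trigger phased small RNAs in reproductive organs, should be at or near 0 in leaf. They summed to 46.3 to 585 in GLY and 99.5 to 139.8 in CK, so this expectation was not met for miR2118. The only miR2275 entry was listed at 0 in every library but GLY 3, where it stood at 10.3.

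The 3p arm of miR166 was lower in every GLY library than in any CK library, while its 5p arm differed little. The summed 3p values were 11247, 7240 and 7727 in GLY 1, GLY 2 and GLY 3, against 11760, 13459 and 20258 in CK 1, CK 2 and CK 3. The groups did not overlap, although GLY 1 lay close below CK 1, and the highest library was CK 3. The log2 difference was -0.78, with an exact two-sided permutation p of 0.1, the smallest p that 3 against 3 libraries can give. Without GLY 2 the difference was -0.66, and without CK 3 it was -0.55. Under median-ratio and upper-quartile scaling it was -0.57 and -1.08, each with an exact permutation p of 0.2, so the separation of the groups depended on the scaling.

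The 5p arm summed to 349 ± 36.7 in GLY and 397 ± 69.3 in CK (SD, n = 3 each). Its log2 difference was -0.18 with an exact permutation p of 0.4, and it became 0.03 when the libraries were scaled by the median ratio. The 5p arm thus made up 3.08%, 5.0% and 3.84% of the family in GLY and 3.16%, 2.43% and 2.28% in CK. GLY 1 lay inside the range of CK. The log2 ratio of the 5p to the 3p arm was higher by 0.61 in GLY with an exact permutation p of 0.2. The groups overlapped in this ratio, since GLY 1 lay below CK 1, so the libraries do not settle whether it differed.

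With both arms and all names added, the family stood at 9196 ± 2194 in GLY and 15957 ± 4846 in CK (SD, n = 3 each). Its limma log2 fold change was -0.78 ± 0.29 (SE) with an adjusted p of 0.177 over 90 tested families, of which 8.89% were called at an adjusted p under 0.05. The family was thus not called. By mean value its rank among 139 families was 6 in GLY and 3 in CK, where miR168 and miR396 stood above it. Counting each sequence once, miR166 took up 7.48%, 4.30% and 4.77% of all miRNA values in GLY and 8.92%, 9.32% and 12.6% in CK.

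Of the 17 entries, 14 reached a value of 10 in at least 3 libraries and were tested one by one on log2(value + 1), with p-values adjusted over all 251 tested miRNAs. Of these, 12 were at 10 or more in all libraries. None (0) was called by limma at an adjusted p under 0.05, where 11.2% of all tested miRNAs were called, 3.59% as lower in GLY. At an unadjusted p under 0.05, 7 entries were lower and 0 higher, beside 15.5% of all tested miRNAs that were lower by this criterion. This count was 4 without GLY 1 and 4 without CK 3, against 9.16% and 6.77% of all tested miRNAs. The values of GLY and CK did not overlap for 8 entries that were lower, against 21.9% of all tested miRNAs, and for 1 that was higher, against 13.9%. The log2 fold change was below 0 for 12 entries, against 62.9% of all tested miRNAs, and below -1 for 9, against 34.7%. Several entries lay close to -1, and the count below it was 5 without GLY 2 (39.8% of all tested miRNAs) and 5 under median-ratio scaling (27.4%). Its median was -1.20 over the tested entries and -0.46 over all tested miRNAs. The entries are near-identical in sequence and not independent of each other, and both gma names are counted here. The counts below 0 and below -1 include osa-miR166l-5p_L-1R+4 and osa-miR166e-3p, which reached 10 in 3 libraries only with their CK values. Their lower level in GLY was thus in part given by the filter. osa-miR166l-5p_L-1R+4 is also among the 8 lower entries without overlap.

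The number of entries called rose most when GLY 2 was left out, although osa-miR166k-3p was also called in some alternatives that kept it. When that library was left out, 6 entries were called lower by limma and 0 higher, but so were 34.3% of all tested miRNAs as lower and 49.8% in either direction. The groups then did not overlap for 9 entries that were lower, against 48.2% of all tested miRNAs, and for 1 that was higher, against 21.9%. The 6 entries were osa-miR166k-3p, osa-miR166g-3p_L+2R-2, osa-miR166i-3p_L+2R-2, osa-miR166l-5p_L-1R+4 and both gma names. Of these, osa-miR166l-5p_L-1R+4 passed the filter through its CK values. Leaving out any other library gave 0 calls.

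osa-miR166a-3p, the form given for several rice loci, was by far the most abundant member and the one with the smallest difference on the 3p arm. It is listed 6 times in the table with identical values. Its values were 8225, 5392 and 5121 in GLY 1, GLY 2 and GLY 3, against 7292, 8043 and 12295 in CK 1, CK 2 and CK 3. GLY 1 lay above CK 1 and CK 2, so the groups overlapped. The limma log2 fold change was -0.56 ± 0.31 (SE), with a 95% interval from -1.32 to 0.21 and an adjusted p of 0.329. It was -0.33 without CK 3 and -0.35 under median-ratio scaling, and the groups no longer overlapped without GLY 1 (-0.77) or under library sum scaling (-0.72), with no call in any of these. By mean value its rank among the 479 names was 9 in GLY and 4 in CK.

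**Figure D1:**
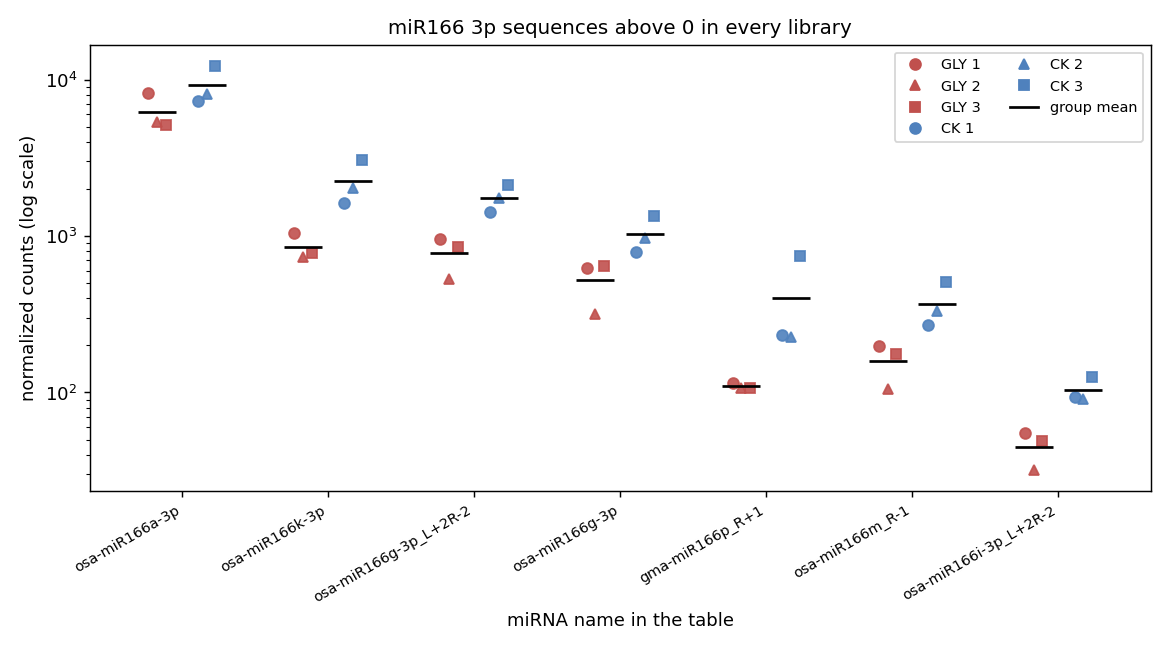
Normalized counts (log scale) of the 7 miR166 3p sequences that were above 0 in every library. Each point is 1 library, with GLY left of CK, and each bar is the mean of 3 libraries. Only osa-miR166a-3p shows overlap between the groups, since GLY 1 (8225) lies above CK 1 and CK 2.

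The next most abundant member was osa-miR166k-3p, which differs from osa-miR166a-3p by the bases given above and is listed 2 times. It was at 1043, 739 and 782 in GLY, against 1639, 2027 and 3083 in CK. The GLY libraries lay close together, and all of them were below the lowest CK library. With a log2 fold change of -1.36 ± 0.33 (SE) and a limma adjusted p of 0.0510, this entry came nearest to a call. It was called when the libraries were scaled by their sums (adjusted p of 0.0328), and its limma adjusted p ranged from 0.0250 to 0.166 over the 15 alternatives.

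osa-miR166g-3p was at 621, 316 and 641 in GLY, against 786, 965 and 1345 in CK, so that GLY 2 was the lowest library and no value was shared by the groups. Its log2 fold change was -1.01 ± 0.40 (SE), with a limma adjusted p of 0.170. The 20-nt osa-miR166m_R-1 was at 198, 105 and 177 in GLY, against 269, 333 and 509.7 in CK. Its limma adjusted p was 0.125. It equalled 2.40%, 1.95% and 3.46% of osa-miR166a-3p in the GLY libraries and 3.69%, 4.14% and 4.15% in the CK libraries. This ratio was lower in each GLY library than in any CK library, and it was chosen after its values were seen. The 20 bases also match the start of the gma sequence, so the entry need not be a shortened osa-miR166a-3p.

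The sequence shared by gma-miR166p_R+1 and gma-miR166m_L+1_1ss21CA, which carries C21A, was at 114, 108 and 107 in GLY, against 235, 227 and 743 in CK. The GLY libraries hardly differed, while CK 3 held more than the other CK libraries together. The log2 fold change was -1.63 ± 0.52 (SE), with a limma adjusted p of 0.109, and it was -1.07 without CK 3.

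The sequences that start 2 nt upstream carry another seed and were both lower in GLY. osa-miR166g-3p_L+2R-2 was at 961, 533 and 850 in GLY, against 1419, 1743 and 2123 in CK, with a log2 fold change of -1.20 ± 0.33 (SE) and a limma adjusted p of 0.0760. Its sequence matches both osa-miR166a-3p and osa-miR166g-3p as far as it reaches, and its ratio was 0.0989 to 0.166 in GLY and 0.173 to 0.217 in CK to the first, and 1.33 to 1.69 in GLY and 1.58 to 1.81 in CK to the second. osa-miR166i-3p_L+2R-2 was at 54.9, 31.8 and 48.7 in GLY, against 93.4, 91.4 and 126 in CK, with the same log2 fold change of -1.20 ± 0.38 (SE) and a limma adjusted p of 0.105. The shifted pair kept a nearly fixed proportion to each other, with 16.8 to 17.5 times more of the first in GLY and 15.2 to 19.1 times more in CK. These ratios were chosen after their values were seen.

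Of the 3p arm, the shifted sequences made up 9.03%, 7.81% and 11.6% in GLY 1, GLY 2 and GLY 3, against 12.9%, 13.6% and 11.1% in CK 1, CK 2 and CK 3. GLY 3 lay above CK 3. The mean share was lower by 3.04 percentage points in GLY, with an exact two-sided permutation p of 0.2. Sequences with the seed of osa-miR166a-3p made up 88.4% to 92.0% of the arm in GLY and 86.1% to 88.7% in CK.

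The rarest 3p forms were near the floor. osa-miR166e-3p, with its base change in the seed, was at 23.6, 14.9 and 0 in GLY, against 21.02, 27.3 and 21.7 in CK, and its limma adjusted p was 0.474. It passed the filter only with its CK values, so its lower level in GLY was in part given by the filter. Of the 6 libraries GLY 3, the shallowest, was listed at 0. stu-miR166b_L+1R-1 was at 6.16, 0 and 0 in GLY, against 5.29, 3.07 and 11.9 in CK, and was too low to be tested. The table holds no counts, so no limit can be set for a value listed at 0. By the estimated steps, 1 read was worth 1.49 normalized counts in GLY 2 and 1.72 in GLY 3, against 0.541 to 0.881 in CK. A 0 in GLY 2 or GLY 3 can thus stand for a higher level than a 0 in CK.

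osa-miR166a-3p filled more of the 3p arm in GLY than in CK. Its share was 73.1%, 74.5% and 66.3% in GLY, against 62.0%, 59.8% and 60.7% in CK. All GLY libraries lay above all CK libraries, and the CK libraries lay close together. The mean share was higher by 10.5 percentage points, with an exact two-sided permutation p of 0.1, the smallest that this design allows, and it was higher by 8.88 points without GLY 2. A share within the arm does not depend on the scaling of the libraries. This share was not among the planned measures and was chosen after its values were seen.

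**Figure D2:**
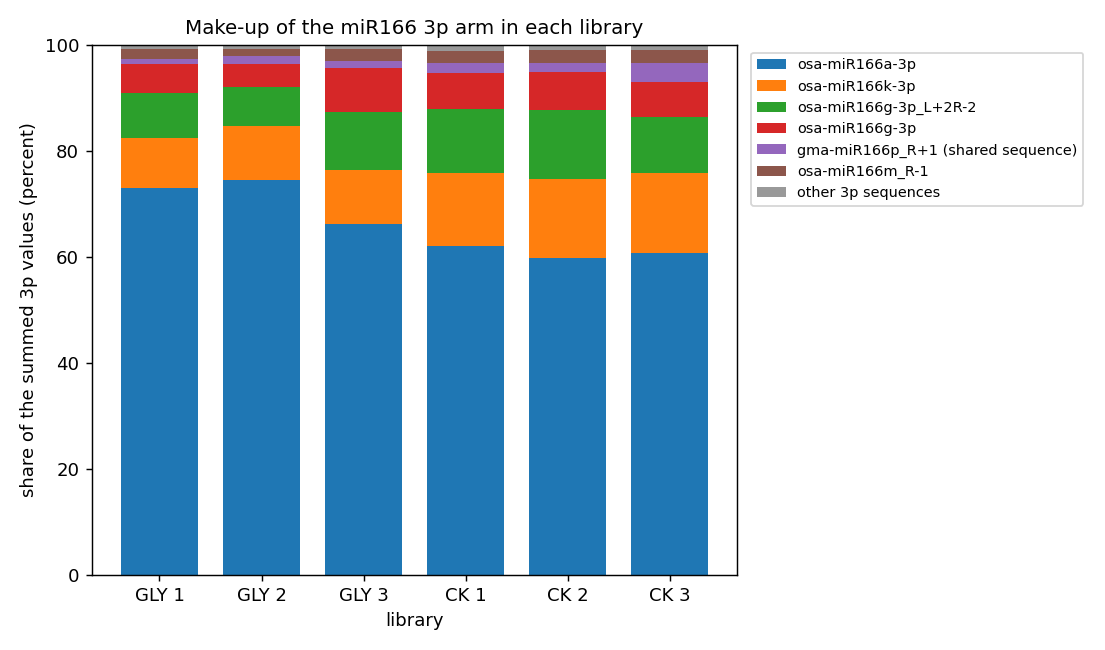
Make-up of the miR166 3p arm in percent of its summed normalized counts, with 1 bar per library and GLY left of CK. The lowest segment, osa-miR166a-3p, reaches 66.3% to 74.5% in GLY and 59.8% to 62.0% in CK, and the segment above it, osa-miR166k-3p, is thinner in GLY.

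Shares of one arm are tied to each other, so a higher share of osa-miR166a-3p means a lower share of the rest. The share of osa-miR166k-3p was 9.27%, 10.2% and 10.1% in GLY and 13.9%, 15.1% and 15.2% in CK. Every other 3p sequence also had a lower mean share in GLY, such as osa-miR166g-3p_L+2R-2 with 8.97% against 11.8% in CK. The ratio of osa-miR166a-3p to osa-miR166k-3p was 7.89, 7.29 and 6.55 in GLY, against 4.45, 3.97 and 3.99 in CK. The groups did not overlap in this ratio, which, like the ratios and sums given next to it, was chosen after its values were seen. For osa-miR166g-3p the picture was less even, since the ratio of osa-miR166a-3p to it was 13.2, 17.1 and 7.99 in GLY and 9.27, 8.34 and 9.14 in CK, with GLY 3 below all CK libraries. Taken without osa-miR166a-3p, the 3p arm summed to 3022, 1848 and 2606 in GLY, against 4468, 5416 and 7962 in CK, a mean 2.39-fold lower in GLY, whereas osa-miR166a-3p alone was 1.47-fold lower. CK 3 was the highest library for 8 of the 9 sequences of the 3p arm, and the part of its depth in these values was not tested.

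**Figure D3:**
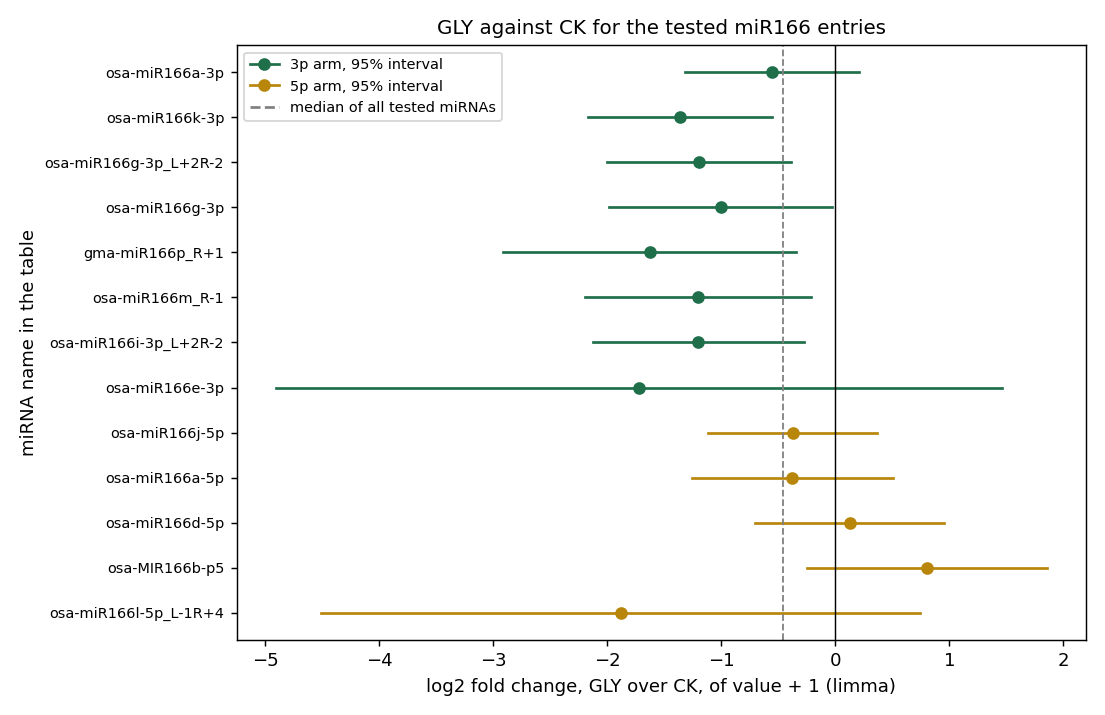
Limma log2 fold change (GLY over CK, of value + 1) of the tested miR166 entries, each with its 95% interval, the gma sequence shown once. All 3p entries lie below 0, 7 of the 8 shown at -1.01 or lower and osa-miR166a-3p at -0.56, while osa-miR166d-5p and osa-MIR166b-p5 of the 5p arm lie above 0. The dashed line is the median of all tested miRNAs (-0.46).

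On the 5p arm the most abundant entry was osa-miR166j-5p, at 124, 179 and 129 in GLY and 194, 165.7 and 196 in CK. GLY 2 lay inside the range of CK, and the log2 fold change was -0.37 ± 0.30 (SE) with a limma adjusted p of 0.517. Nearly as even was osa-miR166a-5p, the strand opposite to the mature form, at 68.6, 67.2 and 52.5 in GLY and 73.1, 67.1 and 109 in CK. Its limma adjusted p was 0.575 with a 95% interval of the log2 fold change from -1.26 to 0.51, so a decrease as large as that of most 3p entries was inside the interval.

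The remaining abundant 5p entries did not share the lower values of the 3p arm. osa-miR166d-5p was at 77.8, 67.2 and 64.5 in GLY and 59.5, 54.8 and 79.2 in CK, with a log2 fold change of 0.13 ± 0.34 (SE) and a limma adjusted p of 0.846. This sign turned to -0.03 with scaling by library sums and to -0.17 with scaling by the upper quartile. osa-MIR166b-p5 was at 71.7, 56.8 and 62.8 in GLY, against 37.4, 24.1 and 51.1 in CK. It was the only tested member (1 of 14) with all GLY libraries above all CK libraries, which no longer held under upper-quartile scaling, and it was not called, with a log2 fold change of 0.80 ± 0.43 (SE) and a limma adjusted p of 0.302.

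osa-MIR166b-p5 and osa-miR166d-5p overlap in sequence and differ in their 5′ ends. The ratio of the upstream start to the other was 0.921, 0.844 and 0.973 in GLY, against 0.630, 0.440 and 0.645 in CK. Likewise osa-miR166d-5p relative to osa-miR166a-5p was at 1.13, 1.0 and 1.23 in GLY, against 0.813, 0.817 and 0.725 in CK. In both cases the groups did not overlap. These ratios rest on few reads, about 30.5 to 88.5 read equivalents per entry in GLY and 27.5 to 202 in CK, and were chosen after their values were seen.

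The rare 5p entries were seen mainly in CK. osa-miR166l-5p_L-1R+4, a 24-nt form, was at 6.16, 10.5 and 0 in GLY and 13.2, 17.5 and 14.6 in CK, with a limma adjusted p of 0.333. It passed the filter through its CK values, so its lower level in GLY was in part given by the filter. osa-MIR166c-p5 was at 8.79, 0 and 0 in GLY and 0, 6.14 and 22.2 in CK. osa-miR166i-5p was listed at 0 in all GLY libraries and at 6.17, 0 and 0 in CK. Both were too low to be tested. GLY 2 and GLY 3, where both were listed at 0, were the shallowest libraries, at about 118662 and 97902 estimated miRNA reads. CK 3 was the deepest at about 304753, and the part of depth in these values was not tested.

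**Figure D4:**
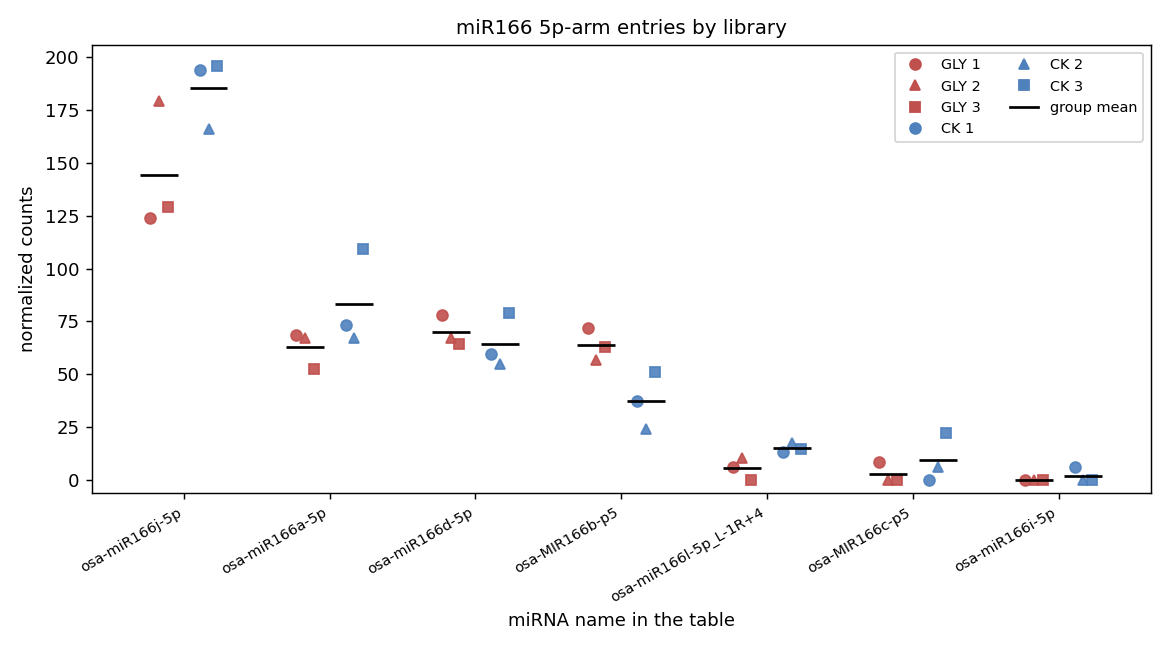
Normalized counts of the 7 miR166 entries of the 5p arm. Each point is 1 library, with GLY left of CK, and each bar is the mean of 3 libraries. osa-MIR166b-p5 is the one entry whose GLY libraries (56.8 to 71.7) lie above its CK libraries (24.1 to 51.1).

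Many of the 3p values were not whole reads. Expressed in reads of each library, osa-miR166k-3p came out in whole eighths of a read in all 6 libraries and osa-miR166i-3p_L+2R-2 in whole sevenths (within 0.03 of a whole part). Each gma name was at 266.5 and 258.5 read equivalents in CK 1 and CK 2. Whether 1 gma name holds all reads of the shared sequence was not tested. For osa-miR166i-3p_L+2R-2 the read equivalents were 62.43, 21.29 and 28.29 in GLY and 106.0, 104.3 and 233.3 in CK. Of the abundant 5p entries, only osa-miR166j-5p gave whole reads in every library, 141, 120.0 and 75 in GLY and 220.0, 189 and 362 in CK. osa-miR166a-5p, osa-miR166d-5p and osa-MIR166b-p5 did not, with 76.5, 62.5 and 27.5 read equivalents in CK 2. How reads that match several precursors were divided is not given in the study's methods, and the part of this division in the differences between GLY and CK was not tested.

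Outside the family, the tested miRNAs whose log2 values followed osa-miR166a-3p most closely over the 6 libraries were osa-MIR1851-p5_1ss1CT (Pearson r of 0.922), osa-miR162b (0.866), osa-MIR160f-p3 (0.856), osa-miR1425-3p (0.855) and osa-miR172a (0.840). Of these, osa-MIR1851-p5_1ss1CT, osa-MIR160f-p3 and osa-miR1425-3p were listed at 0 in GLY 2 and GLY 3, and only osa-miR162b and osa-miR172a were abundant. Within the family the closest was osa-miR166k-3p (0.897), followed by osa-miR166a-5p (0.886), while osa-MIR166b-p5 had a value below 0 (-0.206). These values describe 6 points that share library and depth.

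Other conserved families that act in leaf patterning and growth gave a background for these values. They were miR390, which starts the ta-siRNA pathway against auxin response factors on the upper leaf side, miR160 (auxin response factors), miR164 (NAC genes), miR319 (TCP genes) and miR396 (growth-regulating factors). Of their 22 tested entries 1 was called higher by limma, osa-miR164e, and 3 were called lower, osa-miR160f-5p, osa-miR319a-3p.2-3p_L+1R+1 and osa-miR390-3p_L+3, where 11.2% of all tested miRNAs were called and 3.59% were called lower. Their median log2 fold change was -1.30, beside -1.20 for the miR166 entries. In the small RNA machinery, where miR162 acts on DCL1 and miR168 on AGO1, the same fit gave 0 calls (0 of 4 tested entries) and a median of -0.57.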

How the data were processed

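Small RNA from leaves was made into TruSeq libraries and sequenced single-end on an Illumina HiSeq. After adaptor trimming the authors discarded reads shorter than 18 nt, filtered out other classes of RNA, and matched what remained to miRBase 20.0 with ACGT101-miR (its version is stated in no source used here). The deposited signal per miRNA and library bears the name normalized counts in the headers, with a scaling that no source used here describes. Between 78.5% and 83.5% of the values under 60 were whole multiples of a library's step (within 0.01 of a read), too few to recover counts, so limma replaced the planned count model. Of 582 lines, 103 exact repeats were dropped.

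Here miRNAs that reached 10 in 3 or more libraries entered a limma fit (version 3.58.1, R 4.3.3, trend and robust options) of log2(value + 1), which understates the change of low entries, GLY against CK without a block, with Benjamini-Hochberg adjustment over all tested miRNAs. Family sums were fitted likewise. Arm sums, shares and ratios were compared by exact two-sided permutation over libraries. The limma fit was tested on simulated data. Every member was named, with the 5 most alike miRNAs by Pearson r. The members and lists were chosen with earlier results of these data known. Alternatives were 3 scalings, another pseudocount, 2 filters, plain moderation, joined sequences, a replicate block and each library left out. Unused columns of other samples numbered 0.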

Additional observations from a re-analysis of the deposited data

How the results depend on the processing

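The 3p arm sum, the family sum, the 5p to 3p ratio, the shifted share and the share of osa-miR166a-3p kept their direction under all alternatives run. For the arm sum, the ratio and the shares, joined sequences and the replicate block repeat the main difference by construction. No scaling was run for the ratio and the shares. The family sum was not called in any of its 15 alternatives, with a limma log2 fold change between -1.08 and -0.54 and an adjusted p between 0.0887 and 0.433. The 5p arm sum turned to 0.032 under median-ratio scaling, and osa-miR166d-5p turned to -0.031 under library sum scaling and to -0.17 under upper-quartile scaling. The cause was not tested, and these values are near 0. The number of entries called lower was 1 with library sums, 1 with a filter of 50 in 3 libraries and 1 with names of one sequence joined, each time osa-miR166k-3p, and 0 to 6 when a library was left out, 6 without GLY 2. Entries called higher numbered 0 throughout. The median of all tested miRNAs was -0.46, and -0.60, -0.26 and -0.77 under library sum, median-ratio and upper-quartile scaling. Calls among all miRNAs were 28 (19 higher, 9 lower), against 14 (8 and 6) with the upper quartile, 6 with the replicate block, 21 without GLY 1, 125 without GLY 2, 14 without GLY 3, 2 without CK 1, 2 without CK 2 and 9 without CK 3. Leaving out one library gave log2 differences of -0.98 to -0.55 for the 3p arm, -0.29 to -0.04 for the 5p arm and 0.42 to 0.78 for the 5p to 3p ratio.

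Deviations from the group mean in samples with the same replicate number had correlations of -0.388, 0.0936 and 0.467, with no common direction. So few values cannot tell whether samples with the same number share more than the number. With the replicate block the family sum kept its log2 fold change of -0.78 with a limma adjusted p of 0.294, and 0 entries were called. The pseudocount could not be varied for shares, since none is used there. GLY 3 was the shallowest library, where 1 read was worth 1.72 normalized counts against 0.541 in CK 3, which limits entries near 0.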
